A study of Mus musculus with 6 samples.

Results

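Potassium channel subunits were examined in mouse brain tissue around a haematoma. They were the known genes of the deposited gene table whose symbol starts with Kcn and whose count, summed over the 6 libraries, reached 60. This rule took 67 of 24459 genes, out of 94 known Kcn genes in the table. The tissue was the perihematomal brain of mice after intracerebral haemorrhage (ICH, bleeding into the brain), taken on day 5. All mice had the haemorrhage and differed in treatment, which was TEPP-46, an activator of the pyruvate kinase isoform PKM2, or vehicle, given on 5 consecutive days after it. Each group had 3 libraries, made from total RNA with a nanopore cDNA-PCR kit. The labels name WT under cell type, and strain, sex, age, dose and the way of inducing the haemorrhage are not stated in the sources used here. There was no group without haemorrhage among the samples, so the comparison is between treatments of injured tissue. Libraries are named by their column, C1, C2 and C4 for vehicle and T1, T2 and T3 for TEPP-46, since only the letter ties a column to a group. Values given for single libraries of a group follow that order. Nothing in the labels says that the libraries of a group came from separate animals, and p-values then measure the spread between these samples, which may be technical.

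Potassium channels let potassium ions leave or enter the cell along their gradient. They set the resting potential, end the action potential and limit repetitive firing of neurons, and in astrocytes they take up potassium released by active neurons. Voltage-gated (Kv), KCNQ, EAG-type, calcium- or sodium-activated, inward rectifier (Kir) and tandem-pore (K2P) families share a short pore loop, the selectivity filter, that holds a threonine or serine and the sequence glycine, tyrosine or phenylalanine, glycine. Auxiliary subunits bind to the pore-forming ones and change their gating or transport to the membrane, and carry no pore of their own. Extracellular potassium rises after brain haemorrhage, when cells and red cells break down.

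The filter is shown first because the pore-forming families share it and the auxiliary subunits have no pore. The longest coding sequence of each gene was searched, on the coding strand and in frame, for ACNNTNGGNTNNGGN or TCNNTNGGNTNNGGN, which differ in the first letter only and so cannot match at the same place. Below, the capitals mark the match in transcripts of the GENCODE annotation of GRCm38, each inside coding sequence.
Kcnc1: atgacgACACTGGGCTATGGAgacatgtat
Kcnf1: atgaccACAGTGGGCTATGGTgacatctac
Kcnq3: ctggccACCATTGGTTATGGAgacaagaca
Kcnma1: atgtctACAGTGGGTTATGGGgacgtttat
Kcnj13: caacttACAATTGGTTATGGTaccatgttt
Kcnk2, the first: atcacaACCATAGGATTTGGAaacatctcc
Kcnk2, the second: ctgacgACCATTGGATTTGGAgactacgtg
These stretches lie at chr7:46427967-46427996 (plus strand, Kcnc1), chr12:17175052-17175081 (minus strand, Kcnf1), chr15:66023722-66023751 (minus strand, Kcnq3), chr14:23528404-23528433 (minus strand, Kcnma1), chr1:87389012-87389041 (minus strand, Kcnj13) and chr1:189256572-189256601 (minus strand, the second of Kcnk2). The first of Kcnk2 spans an intron.

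The letters were found in 49 of the 67 channel genes, or 73.1%, and in 328 of 21817 coding genes of the annotation, or 1.503%. All 14 pore-forming Kv genes, all 7 silent Kv genes, all 3 KCNQ genes, all 5 calcium- or sodium-activated genes and all 12 inward rectifiers held 1 match. The silent subunit Kcnf1 thus carries the same kind of stretch as Kcnc1, although silent subunits form channels only together with other Kv subunits. Of 8 K2P genes, 7 held 2 matches each, as Kcnk2 shows, which is the tandem pore that names the family. None of the 11 auxiliary genes held one. Only Kcnh5 of the 7 EAG-type genes did, and the K2P gene Kcnk1 did not. The lack of a match says only that these letters are not in that coding sequence. Serine codons that start with AG were not searched, and the letters do not fully separate pore-forming from auxiliary genes.

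Total counts per library lay between 5286426 and 6025064. A gene without a count could therefore have been present at up to 0.498 to 0.567 CPM (the count scaled by the library total in the usual way), the level of 3 counts, an allowance that covers counting error only. The general neuron markers, 10 of 10 with counts in the table, summed to between 5326 and 7002 CPM in each library. Regional neuron markers varied more. Striatal projection neuron markers, 10 genes, summed to 683, 1870 and 1001 CPM in vehicle and to between 1248 and 1578 CPM in TEPP-46. Thalamus markers, 7 genes, summed to between 68.3 and 290 CPM. Cortical excitatory neuron markers, 8 genes, summed to 878, 544 and 836 CPM in vehicle and to 803, 756 and 571 CPM in TEPP-46. The part of these neurons in the channel values was not tested. Single libraries also stood apart in other cell types. Choroid plexus and ependyma markers, 10 genes, summed to 4998, 232 and 188 CPM in the vehicle libraries and to between 2274 and 4011 CPM in the TEPP-46 libraries. Microglia and macrophage markers, 14 genes, summed to 7618 CPM in C2 and ranged from 965 to 4732 CPM in the other 5. Oligodendrocyte markers, 10 genes, summed to 5421 CPM in C4 and to between 13289 and 15487 CPM in the others. In bulk tissue, fewer cells of a type and less RNA per cell cannot be told apart.

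Together the 67 genes took 1876 ± 214 CPM in vehicle and 1933 ± 217 CPM in TEPP-46 (SD, n = 3 each), or 2055, 1639 and 1933 CPM in vehicle and 2147, 1937 and 1714 CPM in TEPP-46. C2 and T3 were the lowest in their groups, and the groups overlapped. By mean CPM over all libraries, Kcnab2 stood highest at 268 CPM, followed by Kcnma1 at 146, Kcna6 at 132 and Kcnip2 at 122 CPM. Division by isoform length changed this order, and whether counts of these libraries rise with length was not tested. Per length of a gene's most abundant annotated isoform, the cytoplasmic Kv subunit Kcnab2 stood highest at 68.4 CPM per kb over all libraries. It was followed by Kcnip2 at 50.8 CPM per kb, a calcium-binding partner of Kv4 channels, and by the K2P channel Kcnk1 at 30.4 CPM per kb. Kcnip4 stood at 23.3, Kcna6 at 22.7, Kcnab1 at 18.6 and Kcnk2 at 14.2 CPM per kb. Kcnma1, with an isoform of 12.1 kb, was at rank 10 per length. The lowest per length was the delayed rectifier Kcnb2 at 0.212 CPM per kb, with an isoform of 14.8 kb. By mean CPM, Kcnb2 was at rank 60 of the 67 with 3.15 CPM. Over the genes with a count in every library, the highest library was a median of 1.81 times the lowest, against 1.74 times for all tested genes.

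TEPP-46 was compared with vehicle to ask whether treatment went with a different channel repertoire in the injured tissue. No channel gene passed the test. With edgeR's quasi-likelihood test, 66 of the 67 genes had enough counts to be tested, and 0 had a Benjamini-Hochberg adjusted p under 0.05, where the share of all 14441 tested genes was 0%. At an unadjusted p under 0.05 there were also 0 of 66, where the share of all tested genes was 5.93%. Scaling by relative log expression and DESeq2 likewise gave 0 members at an unadjusted p under 0.05. The shares of all tested genes in those runs are not given here. The smallest unadjusted p of a channel gene was 0.066, that of Kcna4, and its adjusted p in edgeR was 0.876. The smallest adjusted p of any gene was 0.380.

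A difference that misses the threshold does not show equal levels, and the intervals give how far the data reach. In 49 of the 66 tested genes the 95% interval of the log2 fold change (TEPP-46 over vehicle) lay within 1 on either side of 0, that is within a 2-fold change. The share of all tested genes with such an interval was 68.7%. Only 5 genes had an interval within 0.5 on either side of 0. The signs were balanced, with 32 positive and 34 negative values and a median of -0.02, beside a median of 0.01 and 51.1% positive values over all tested genes. Non-overlapping groups were seen in 3 of the 67 genes, where the share of all tested genes was 11.4%. Kcnd2 was higher in TEPP-46, where the share was 5.67%, and Kcnf1 and Kcnk12 were lower, where it was 5.76%. Kcnk12 was itself too low to be tested, and it reached the count minimum only through its vehicle counts.

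**Figure D1:**
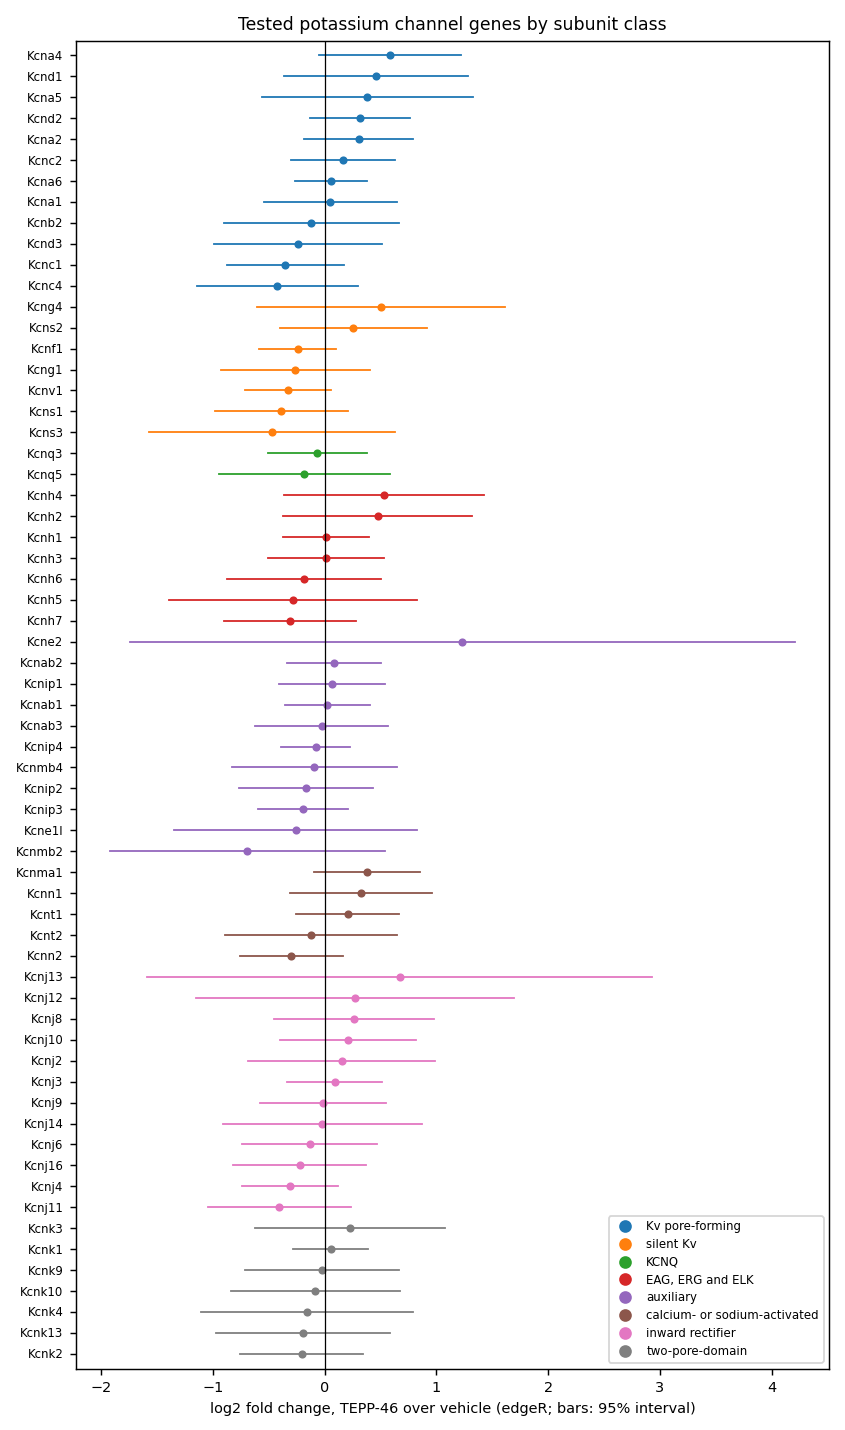
Log2 fold change (TEPP-46 over vehicle, edgeR) of 63 of the 66 tested channel genes, sorted within 8 classes marked by colour; points are fitted values and bars 95% intervals. All intervals cross 0, and those of Kcne2 and Kcnj13 are the widest.

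The Kv channels that repolarise the action potential had positive log2 fold changes in 10 of 14 genes, with a median of 0.11, none past the test. All 5 tested genes of the Kcna family, the low-threshold channels of axons and dendrites, were positive, between 0.05 and 0.59. Kcna1 of that family turned negative without C4 or without T1. Kcna4 (chr2:107290639-107298502, plus strand), which encodes an A-type channel, was at 4.49, 6.67 and 4.35 CPM in vehicle and at 8.46, 8.54 and 6.60 CPM in TEPP-46. T3 was just under C2, so the groups overlapped. Its log2 fold change was 0.59 with a standard error (SE) of 0.28 and a 95% interval from -0.05 to 1.22. Kcna2, a main axonal Kv channel, was at 23.2, 18.2 and 25.7 CPM in vehicle and at 32.5, 29.9 and 21.1 CPM in TEPP-46, and T3 lay among the vehicle values. Kcna6, the Kcna gene with the highest level per length, was at 129 ± 18.7 CPM in vehicle and 135 ± 15.9 CPM in TEPP-46 (SD, n = 3 each), a log2 difference of 0.06 with SE 0.14. Without C2 or without T1 its sign turned negative.

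The A-type channel Kcnd2 (chr6:21215503-21729805, plus strand), the Kv4 subunit of dendrites, was at 13.5, 12.8 and 10.4 CPM in vehicle and at 14.8, 16.4 and 14.9 CPM in TEPP-46. Every TEPP-46 library was above every vehicle library. The log2 fold change was 0.31 with SE 0.20, with an interval from -0.13 to 0.76 and an edgeR adjusted p of 0.941. Kcnip2, its calcium-binding partner, was at 88.4, 112 and 183 CPM in vehicle and at 142, 99.4 and 105 CPM in TEPP-46. C4 was the highest library, and without C4 the sign turned positive at 0.19.

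**Figure D2:**
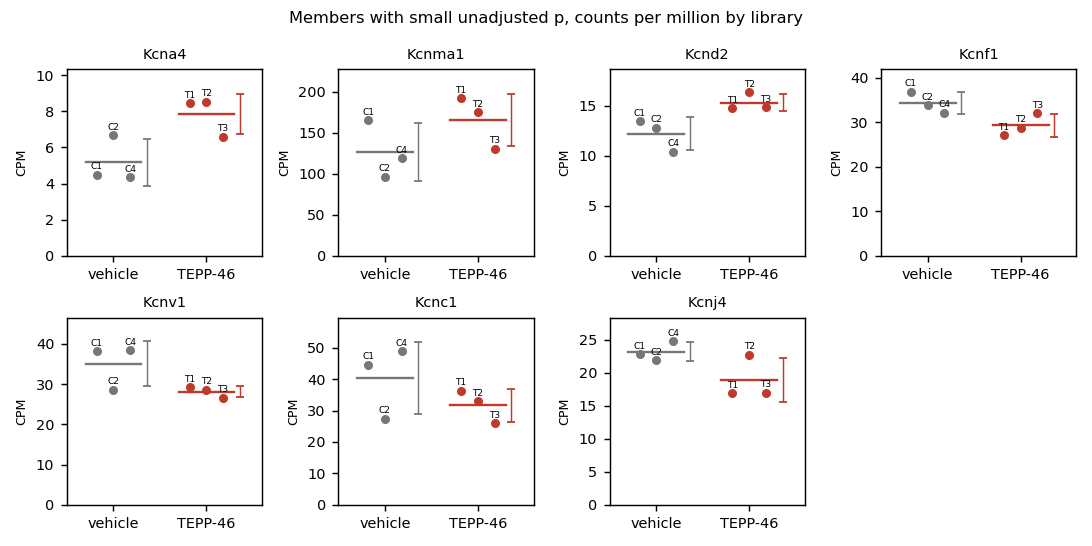
CPM by library for 7 of the 8 tested genes with the smallest unadjusted p, vehicle in grey and TEPP-46 in red; horizontal lines are means and side bars 1 SD on either side (n = 3 each). Of these 7, the groups separate in Kcnd2 and, by 32.0 against 32.2 CPM, in Kcnf1.

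Kv3 channels, which open at high voltage and let neurons fire fast, differed in sign. Kcnc1 (chr7:46396497-46438704, plus strand), the Kv3.1 gene, was at 44.6, 27.4 and 49.0 CPM in vehicle and at 36.3, 32.9 and 26.0 CPM in TEPP-46, a log2 fold change of -0.35 with SE 0.23. C2 was low in its group and within the TEPP-46 range, and the value was -0.56 without C2, -0.19 without C4 and -0.23 without T3. Kcnc4, an A-type Kv3 channel, was at 18.2, 11.9 and 28.9 CPM in vehicle and at 13.3, 18.3 and 12.6 CPM in TEPP-46. Here C4 was the highest library, and the log2 fold change of -0.42 became -0.04 without it and -0.68 without C2. Kcnc2 (Kv3.2) was at 37.0 ± 9.94 against 41.8 ± 5.48 CPM, vehicle first (SD, n = 3 each).

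Silent Kv subunits, which do not form channels alone but alter Kv2 channels when they join them, had negative log2 fold changes in 5 of 7, with a median log2 fold change of -0.26, none past the test. Kcnf1 (chr12:17172100-17176888, minus strand) was at 36.9, 33.9 and 32.2 CPM in vehicle and at 27.1, 28.8 and 32.0 CPM in TEPP-46. The groups were separate by the narrow gap between C4 and T3. The fitted log2 fold change was -0.24 with SE 0.15, a 95% interval from -0.59 to 0.10 and an edgeR adjusted p of 0.941. Kcnv1 (chr15:45106284-45114920, minus strand) was at 38.2, 28.6 and 38.4 CPM in vehicle and at 29.2, 28.6 and 26.6 CPM in TEPP-46. C2 lay among the TEPP-46 values, and the log2 fold change was -0.33 with SE 0.17 (interval -0.71 to 0.05). The summed level of the 7 silent subunits was 106, 89.99 and 105 CPM in vehicle and 82.8, 85.6 and 89.5 CPM in TEPP-46, or 100.3 ± 8.93 against 86.0 ± 3.36 CPM (SD, n = 3 each). The lowest vehicle sum, in C2, was just above the highest TEPP-46 sum, in T3. Kcnf1 and Kcnv1 are part of this sum, which in part repeats their values. How often sums of other genes separate is not given here.

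The KCNQ channels carry the M-current, a slow brake on firing that muscarinic receptors close. Kcnq3 was at 15.9 ± 1.73 against 15.3 ± 1.80 CPM, and Kcnq5 at 23.9 ± 8.56 against 21.2 ± 8.46 CPM (SD, n = 3 each). Their log2 fold changes of -0.06 and -0.18 were each smaller than their SE of 0.20 and 0.34. EAG-type channels, whose Kcnh2 encodes the ERG channel also known from the heart, gave 4 positive and 3 negative values with a median of 0.01. Kcnh1 was at 31.6 ± 3.56 against 32.2 ± 4.15 CPM and Kcnh3 at 22.8 ± 3.57 against 23.1 ± 5.79 CPM (SD, n = 3 each), and the signs of both depended on the scaling or filter. Kcnh7 was at 17.4, 9.47 and 18.2 CPM in vehicle and at 12.4, 12.5 and 11.7 CPM in TEPP-46, with C2 below all others.

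Among calcium- and sodium-activated channels 3 of 5 were positive, with a median log2 fold change of 0.21. Kcnma1 (chr14:23289431-24014491, minus strand), the large-conductance BK channel opened by calcium and voltage, was at 165, 96.5 and 119 CPM in vehicle and at 192, 175 and 130 CPM in TEPP-46. C1 lay above T3. Its log2 fold change was 0.38 with SE 0.21, a 95% interval from -0.10 to 0.85 and an edgeR adjusted p of 0.915. The value was 0.61 without C1 and 0.22 without C2. The sodium-activated channel Kcnt1 was at 43.8 ± 4.64 against 51.0 ± 12.6 CPM, vehicle first (SD, n = 3 each). The small-conductance channels, which shape the pause after a spike, had overlapping groups, Kcnn1 at 16.6 ± 2.68 against 20.8 ± 8.25 CPM and Kcnn2 at 44.6 ± 9.20 against 36.6 ± 7.85 CPM (SD, n = 3 each). The BK partner Kcnmb4, the neuronal beta subunit, was at 12.1 ± 5.59 against 11.4 ± 1.53 CPM, and Kcnmb2 at 2.64 ± 0.978 against 1.63 ± 1.06 CPM (SD, n = 3 each).

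The 12 inward rectifiers, which pass current more easily into the cell, were 6 positive and 6 negative. Kcnj10 and Kcnj16 form the astrocyte channel that takes up potassium. Kcnj10 was at 7.12, 10.7 and 7.19 CPM in vehicle and at 8.13, 11.9 and 9.23 CPM in TEPP-46, and Kcnj16 at 9.55, 7.54 and 5.67 CPM against 6.47, 6.40 and 6.78 CPM. Neither pair of groups was separate, and their log2 fold changes were 0.21 with SE 0.27 and -0.22 with SE 0.26. Astrocyte markers, 10 of 10 of them with a positive log2 fold change, summed to between 5120 and 5129 CPM in vehicle and between 5502 and 5880 CPM in TEPP-46. Relative to their level, single markers varied more within vehicle than this sum. Gja1 was at 137, 186 and 100 CPM and Aldoc at 1561, 1380 and 2018 CPM in vehicle. The part of astrocyte RNA in the Kcnj10 and Kcnj16 values was not tested. Kcnj3 and Kcnj9, subunits of the G-protein-gated channel behind slow inhibition, were at 31.0 ± 5.17 against 33.2 ± 5.30 CPM and at 33.4 ± 6.57 against 33.3 ± 11.1 CPM. Kcnj4, a strong rectifier of forebrain neurons, was at 22.8, 21.9 and 24.8 CPM in vehicle and at 16.9, 22.8 and 17.0 CPM in TEPP-46, with T2 inside the vehicle range and a log2 fold change of -0.31 (SE 0.19), or -0.47 without T2. Kcnj11, the pore of the ATP-sensitive channel that closes when cell ATP is high, was at 6.55, 5.09 and 7.38 CPM in vehicle and at 5.81, 4.45 and 4.15 CPM in TEPP-46. Its fitted log2 fold change was -0.41 (SE 0.28, edgeR adjusted p 0.963). Kcnj8, the ATP-sensitive pore of vessel-wall cells, was at 3.75, 3.16 and 4.16 CPM in vehicle and at 5.31, 4.80 and 3.20 CPM in TEPP-46, and Kcnj2 at 3.90 ± 0.969 against 4.36 ± 1.55 CPM, vehicle first (SD, n = 3 each).

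K2P channels carry the background leak that holds the resting potential. Kcnk1 was at 73.0, 60.7 and 65.8 CPM in vehicle and at 76.5, 58.2 and 74.1 CPM in TEPP-46, and Kcnk2 (TREK-1, opened by stretch and by fatty acids) at 40.1, 47.9 and 61.5 CPM against 36.7, 58.9 and 35.0 CPM. Their log2 fold changes of 0.05 and -0.21 were smaller than their SE of 0.15 and 0.24. The acid-sensitive Kcnk3 and Kcnk9 were at 3.94 ± 1.52 against 4.67 ± 1.45 CPM and at 5.48 ± 1.53 against 5.41 ± 0.944 CPM (SD, n = 3 each).

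Some of the largest differences between libraries lay within the vehicle group, in genes known from cells other than neurons. Kcne2 (chr16:92292389-92298129, plus strand), an accessory subunit of choroid plexus epithelium, was at 8.99 CPM in C1 and had no count in C2 and C4, and was at 7.80, 3.74 and 9.61 CPM in T1, T2 and T3. Kcnj13 (chr1:87386363-87394729, minus strand), the Kir7.1 channel of the same epithelium, was at 15.7, 0.877 and 0.946 CPM in vehicle and at 10.5, 6.76 and 10.7 CPM in TEPP-46. Both genes were thus present in C1 and the TEPP-46 libraries and at or near 0 in C2 and C4. Ttr, the main transcript of the choroid plexus, was likewise high in C1 and TEPP-46 and low in C2 and C4, with 4053, 0.526 and 13.6 CPM in vehicle and 3151, 1778 and 3161 CPM in TEPP-46. Of the choroid plexus markers, Folr1 and Otx2 had no count in a library, C4. The part of choroid plexus RNA in the 2 channel genes was not tested. The log2 fold changes over all libraries were 1.23 for Kcne2 with SE 1.25 and 0.67 for Kcnj13 with SE 0.95. Without C1, Kcne2 was at least 25.7-fold higher in TEPP-46 than the level of 3 counts over C2 and C4 together. The log2 fold change of Kcnj13 was then 3.31 with an unadjusted edgeR p of 6.36e-05 and an adjusted p of 0.304. C1 was the vehicle library in which both genes were high. Leaving it out fixed a large difference in advance, so these values show the weight of C1 and do not test treatment. Exons of Kcnj13 overlap Gigyf2 on the opposite strand, and reads of the pair cannot be told apart, since the sources used here do not give the strand setting of the counting.

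Kcnk13, a K2P channel of microglia, was at 11.99, 22.1 and 7.94 CPM in vehicle and at 11.95, 11.6 and 13.8 CPM in TEPP-46. Kcne1l, an accessory subunit, was at 4.12, 10.3 and 2.46 CPM in vehicle and at 4.15, 5.34 and 4.90 CPM in TEPP-46. In both, C2 was the highest and C4 the lowest of all 6 libraries. These also held the highest and lowest sums of the microglia and macrophage markers, 7618 CPM in C2 and 965 CPM in C4. The same held for reactive astrocyte markers, at 827 CPM in C2 and 109 CPM in C4. Red blood cell markers also shared these extremes, at 1053 CPM in C2 and 319 CPM in C4. Kcnn4, the calcium-activated channel of immune cells, was under the count minimum with 0, 11 and 0 counts in vehicle and 1, 0 and 6 counts in TEPP-46. Without C2, the log2 fold change of Kcnk13 went from -0.19 to 0.31. The part of microglial, reactive astrocyte or red blood cell RNA in these values was not tested.

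Kcnk12 (chr17:87745801-87797994, minus strand), a K2P channel of the same THIK subfamily as Kcnk13, had 7, 3 and 49 counts in vehicle and 0, 1 and 1 counts in TEPP-46. It was below the count filter of the test and has no p. Counting error alone gave a ratio of TEPP-46 to vehicle of 0.0326 with a 95% interval from 0.00386 to 0.123. Without C4, which held most of the counts, the ratio was 0.130 with an interval from 0.0139 to 0.611. With the low-count filter removed, it was the 1 channel gene with an unadjusted p under 0.05. The share of all genes in that run is not given here, so this is not read as a result about Kcnk12. C4 also had the highest level of any library in 21 of the 67 channel genes, or 31.3%, and in 24.2% of all tested genes. Kcna1, a channel of myelinated axons, was lowest in C4, at 16.3 CPM against 33.7 and 31.0 CPM in C1 and C2 and 32.9, 26.3 and 25.4 CPM in TEPP-46. Kcna2, the other axonal channel named above, was instead highest in C4 among vehicle libraries, at 25.7 CPM against 23.2 and 18.2 CPM in C1 and C2. C4 was also the library with the lowest oligodendrocyte markers, and their part in the Kcna1 values was not tested.

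**Figure D3:**
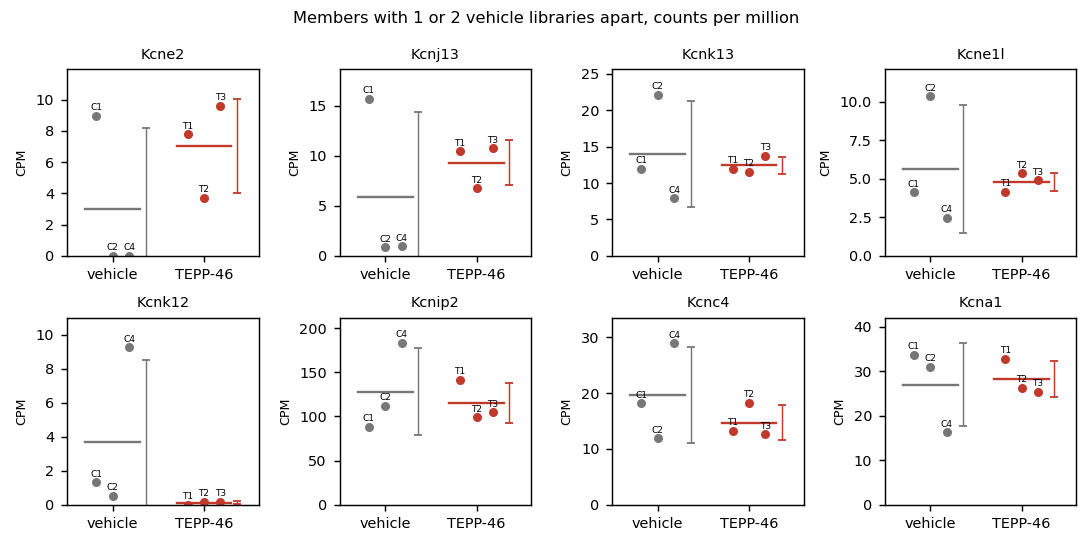
CPM by library for 8 channel genes in which 1 or 2 vehicle libraries stood apart, vehicle in grey and TEPP-46 in red; horizontal lines are means and side bars 1 SD on either side, drawn down to 0 at most (n = 3 each). They were picked with their values in view, and C1 stands apart from C2 and C4 in Kcne2 and Kcnj13, C2 in Kcnk13 and Kcne1l, and C4 in the other genes.

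How far 1 library decides the picture was measured by leaving each out. Without C1, 4 channel genes had an unadjusted p under 0.05, all higher in TEPP-46 and Kcne2, Kcnj13 and Kcnma1 among them, where the share of all tested genes was 6.91%. Without C2 there were 5, with Kcna4 higher and Kcnv1, Kcnh7, Kcnc4 and Kcnc1 lower, where the share of all tested genes was 10.2%. Without T3 there were 2, Kcnma1 among them, and without T2 there was 1, Kcnj4, where the shares were 5.53% and 4.85%. Without C4 or T1 there were 0, where the shares were 4.21% and 3.95%. None of these passed an adjusted p of 0.05 in edgeR. Of the 67 members 23.9% were lowest in T3 and 22.4% in C2, where the shares of all tested genes were 13.1% and 18.8%.

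The deposited isoform table held 243 isoforms of these genes, 226 known and 17 new, and 164 of them, in 63 genes, had enough counts to be tested. None had an adjusted p under 0.05 in edgeR, the smallest being 0.616. At an unadjusted p under 0.05 there were 4, or 2.44%, where the share of all 33854 tested isoforms was 5.77%. They were Kcnc1-201 and a new Kcnk2 isoform, lower, and Kcnc2-202 and Kcna4-201, higher in TEPP-46. Kcna4-201 is the only isoform counted for Kcna4 and repeats its gene value. Isoform counts of a gene were not independent. Kcnip2-209 and a new Kcnip2 isoform differed by at most 2 counts in any library, at counts between 113 and 247. All 31 tested isoforms of Kcnma1, of 34 in the table, had a positive log2 fold change like the gene.

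The Kv3.1 gene Kcnc1 has 2 protein forms that share the channel and differ in the end of the cytoplasmic tail. The short form, Kv3.1a, is encoded by Kcnc1-201 with 511 codons, and the long form, Kv3.1b, by Kcnc1-203 with 585. They share 1504 coding bases, the pore stretch above included. The sequences show where they part, in lower case the last shared bases and in capitals the bases of each form.
Kcnc1-201: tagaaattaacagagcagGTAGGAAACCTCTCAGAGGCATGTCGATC
Kcnc1-203: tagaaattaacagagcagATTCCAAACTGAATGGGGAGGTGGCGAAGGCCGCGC
The shared bases start at chr7:46428262 on the plus strand of GRCm38. Kcnc1-201 runs on into the next bases of the same exon until chr7:46428308, the end of its coding sequence. Kcnc1-203 is spliced to chr7:46435158, and its next 36 coding bases are shown.

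Kcnc1-201 had 112, 71 and 142 counts in vehicle and 68, 75 and 52 counts in TEPP-46. Its log2 fold change was -0.83 with SE 0.26, an unadjusted edgeR p of 0.0076 and an adjusted p of 0.616. Kcnc1-203 had 126, 85 and 117 counts in vehicle and 151, 110 and 86 counts in TEPP-46, a log2 fold change of -0.02 with SE 0.21. The short form thus made up 47.1%, 45.5% and 54.8% of Kcnc1 counts in vehicle and 31.1%, 40.5% and 37.7% in TEPP-46. The groups did not overlap, at 49.1% ± 4.99 against 36.4% ± 4.87 (SD, n = 3 each), but the exact binomial 95% intervals of single libraries did, for example 37.5% to 53.7% in C2 and 33.4% to 48.0% in T2. The share was looked at because the isoform had a low p, so it is a description. Without C2 the adjusted p of Kcnc1-201 was 0.0450 in edgeR, and over the other single libraries left out it was between 0.607 and 1.00. DESeq2 gave an adjusted p of 0.341. In C4 the short form had more counts than the long form, and in the other 5 libraries fewer.

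Isoform proportions apart from the gene total were tested in 30 channel genes with diffSpliceDGE of edgeR. None had an adjusted p under 0.05, where the share of all 7639 genes tested was 0.0131%, and the smallest adjusted p in edgeR was 1.00. At an unadjusted p under 0.05 there were 2, or 6.67%, where the share of all genes tested was 0.641%. They were Kcnk2 and Kcnc2, with an unadjusted edgeR p of 0.0454 and 0.0476. Kcnc1 had an unadjusted p of 0.191 and, like them, an adjusted p of 1.00 in diffSpliceDGE. In Kcnc2, the isoform Kcnc2-202, with 720 coding bases against 1926 in Kcnc2-201, had 11, 3 and 5 counts in vehicle and 21, 18 and 13 counts in TEPP-46. Its share of Kcnc2 was 2.96% ± 1.24 against 7.26% ± 0.565, vehicle first (SD, n = 3 each), without overlap. The new Kcnk2 isoform had 34, 42 and 57 counts in vehicle and 4, 14 and 30 counts in TEPP-46. Its share was 15.9%, 15.4% and 17.5% in vehicle and 1.81%, 4.23% and 16.1% in TEPP-46, where T3 lay within the vehicle range. With a summed isoform count of at least 20 as the filter, 0 channel genes had a usage p under 0.05.

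**Figure D4:**
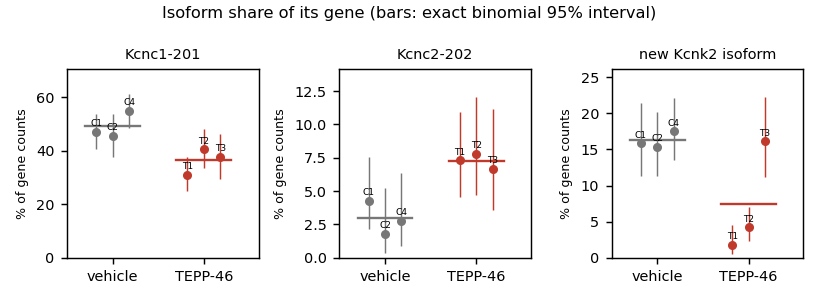
Share of its gene's counts, in percent, taken by Kcnc1-201, Kcnc2-202 and a new Kcnk2 isoform in each library, vehicle in grey and TEPP-46 in red; bars are exact binomial 95% intervals and horizontal lines group means. The groups are separate for the 2 Kv3 isoforms, and T3 lies with vehicle for Kcnk2. The isoforms were picked for a low unadjusted p in edgeR.

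Partner genes of the channels were read from the same fit, from a list of 44 genes of anchoring proteins, accessory proteins, potassium pumps, chloride transporters and hyperpolarisation-activated channels. Of 39 tested, the log2 fold change was positive in 25, and its median was 0.10. None had an adjusted p under 0.05 in edgeR, and 8, or 20.5%, had an unadjusted p under 0.05, where the share of all tested genes was 5.93%. Of these, 5 were lower and 3 higher in TEPP-46. The list was chosen with earlier results of these data known, so its share is a description and not a test of partner genes. The count of partner genes was 10 without C1, 9 without C2, 4 without C4, 2 without T1, 5 without T2 and 8 without T3. In the same order, the share of all tested genes was 6.91%, 10.2%, 4.21%, 3.95%, 4.85% and 5.53%.

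Vapa, an endoplasmic reticulum protein that tethers Kv2 channels to the plasma membrane, was at 134, 92.6 and 159 CPM in vehicle and at 27.2, 48.9 and 62.4 CPM in TEPP-46. The groups did not overlap, and the log2 fold change was -1.49 with SE 0.30 (edgeR adjusted p 0.380). Its relative Vapb, with the same role, was at 70.2, 45.3 and 101 CPM in vehicle and at 33.4, 49.8 and 43.9 CPM in TEPP-46, with a log2 fold change of -0.78 (SE 0.28), or -0.45 without C4. DESeq2 gave Vapa an adjusted p of 0.000502. Aqp4, the water channel in the endfeet of astrocytes, was at 36.3, 57.9 and 17.6 CPM in vehicle and at 25.2, 39.1 and 57.3 CPM in TEPP-46, with a log2 fold change of 0.10 (SE 0.44).

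The potassium-chloride cotransporter Slc12a5 (KCC2), which keeps chloride low so that GABA inhibits, was at 455, 382 and 610 CPM in vehicle and at 340.4, 354 and 360.5 CPM in TEPP-46, with a log2 fold change of -0.47 and SE 0.16, which was -0.26 without C4. The groups did not overlap, and the edgeR adjusted p was 0.700. The scaffold Dlg2 (PSD-93), which clusters Kcna channels, was at 121 ± 16.7 against 159 ± 19.1 CPM, and the BK accessory protein Lrrc55 at 5.79 ± 2.31 against 10.6 ± 2.77 CPM, vehicle first (SD, n = 3 each). Rgs7, which speeds the closing of G-protein-gated Kcnj channels, was at 23.2, 17.7 and 41.6 CPM in vehicle and at 15.4, 19.9 and 15.5 CPM in TEPP-46. Slc12a5, Dlg2, Lrrc55, Rgs7 and Vapb missed the adjusted threshold in each alternative run.

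**Figure D5:**
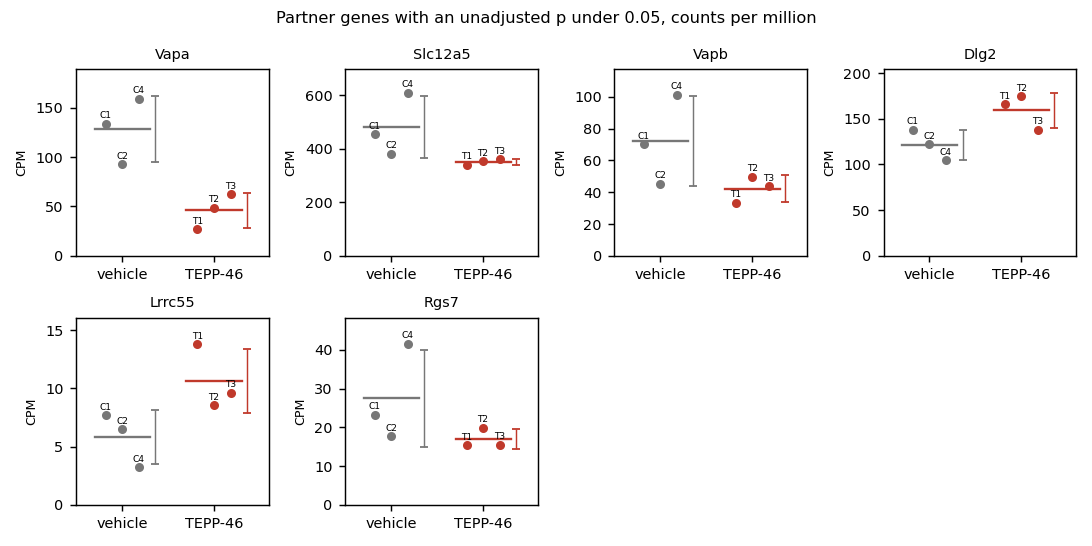
CPM by library for 6 of the 8 partner genes with an unadjusted p under 0.05 in edgeR, vehicle in grey and TEPP-46 in red; horizontal lines are means and side bars 1 SD on either side (n = 3 each). TEPP-46 libraries lie below all vehicle libraries in Vapa and Slc12a5, and overlap vehicle in Vapb and Rgs7.

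The count minimum kept 67 genes, and the values beside it were close. Just inside were Kcnk12 with 61 counts and Kcng4 with 70, and Kcnu1 with 47 was just outside. Of the 27 known Kcn genes outside, 8 had no count in any library. Exons of 24 members overlap another gene, 22 of them on the opposite strand. Counts of opposite-strand pairs cannot be told apart without the strand setting. Kcna6, Kcnma1, Kcnk1 and Kcnk2 are among these members. Kcnab2, which stood highest by CPM, overlaps Gm16334 on the same strand, where the strand setting would not separate the reads.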

How the data were processed

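Total RNA of perihematomal tissue was sequenced as nanopore cDNA, 3 TEPP-46 and 3 vehicle libraries. The authors deposited raw counts per gene and per isoform, per the file headers. Per the submitters' processing notes, DESeq 1.10.1 and the build GRCm38 were used, and the sources used here do not give the aligner, counting tool and strand setting. CPM was computed from the counts, and 12 other columns per library were not used. Genes and isoforms were tested over the whole tables with edgeR 4.0.16 (filterByExpr, TMM, robust quasi-likelihood F test, group as the single term) in R 4.3.3, with Benjamini-Hochberg adjustment at 0.05, and isoform usage with diffSpliceDGE and Simes p-values. SE was the fitted log2 value divided by the root of its F, and 95% intervals used the fit's degrees of freedom. Alternatives were RLE scaling, DESeq2 1.42.0, no low-count filter, other count minimums, TMM-scaled CPM and leaving out each library. The fit was tested on simulated counts. Coordinates, isoform lengths and sequences came from the GENCODE annotation of GRCm38, in which all 67 members were found. Level per length used the length of 1 annotated isoform per gene. The results of some genes, 3 members among them, are not reported here, and all genes stay in the fits and counts. Members and lists were chosen with earlier results of these data known. The naming rule took members with an unadjusted p under 0.05, the 2 with the highest mean CPM in each class, members known from non-neuronal cells, those with non-overlapping groups, the 5 with the smallest usage p, and partner genes with an unadjusted p under 0.05, and other members and partners named were chosen after their values were seen.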

Additional observations from a re-analysis of the deposited data

How the results depend on the processing

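No channel gene passed an adjusted p of 0.05 in any alternative run, and the absence of calls among all genes depended on the tool and on C2. DESeq2 gave 84 genes with an adjusted p under 0.05 in the whole table, and leaving out single libraries gave 0 to 43 in edgeR, with 43 without C2. Channel genes with an unadjusted p under 0.05 numbered 1 without the low-count filter and 0 to 5 with 1 library left out. With 1 library left out, the share of all tested genes was between 3.95% and 10.2%. Isoforms of the channel genes numbered 9 without the filter and 3 to 11 with 1 library left out. The shares of all genes without the filter, and of all isoforms in these runs, are not given here. Those counts are therefore not read as particular to channels. Isoform usage gave 0 genes at an isoform count minimum of 20 and 0 to 1 with 1 library left out, and partner genes numbered 2 to 10. The cause of these shifts was not tested. Of 219 log2 fold changes of named genes and isoforms under RLE scaling, DESeq2 or no filter, 4 changed sign. These were Kcnh1 without the filter (-0.0027) and Kcnh3 with RLE scaling (-0.0030), with DESeq2 (-0.0030) and without the filter (-0.0079). Leaving out 1 library changed the sign in 29 of 73 results, whose log2 fold changes then ranged as follows: Kcna1 -0.21 to 0.23, Kcna6 -0.026 to 0.18, Kcnab1 -0.096 to 0.16, Kcnab2 -0.082 to 0.25, Kcnab3 -0.29 to 0.19, Kcnb2 -0.35 to 0.047, Kcnd3 -0.54 to 0.015, Kcne1l -0.61 to 0.54, Kcnh1 -0.059 to 0.12, Kcnh3 -0.13 to 0.20, Kcnh5 -0.62 to 0.17, Kcnip1 -0.14 to 0.22, Kcnip2 -0.37 to 0.19, Kcnj12 -0.55 to 0.89, Kcnj14 -0.38 to 0.16, Kcnj2 -0.074 to 0.41, Kcnj9 -0.32 to 0.15, Kcnk1 -0.020 to 0.16, Kcnk10 -0.32 to 0.064, Kcnk13 -0.47 to 0.31, Kcnk3 -0.051 to 0.59, Kcnk4 -0.61 to 0.21, Kcnk9 -0.18 to 0.22, Kcnmb4 -0.37 to 0.31, Kcnn1 -0.037 to 0.54, Kcnq3 -0.14 to 0.026, Kcnq5 -0.52 to 0.11, Kcns3 -0.77 to 0.094, Kcnt2 -0.34 to 0.11. Scaling CPM by TMM instead of the library total gave channel sums of 1889 CPM in vehicle and 1931 CPM in TEPP-46, and a count minimum of 30 or 120 took 73 or 59 genes. No paired analysis was possible because the numbers in the column names are not tied to the numbered samples of the labels. Depth limits the genes with few counts, which the simulation did not vary. The test recovered 34.0% of 97 simulated 2-fold changes and 89.7% of 97 simulated 4-fold changes among 14124 genes, with 12 false calls. These counts were drawn independently for each gene, without the shifts in cell type markers between libraries described above. Recovery in the real libraries may be lower, and it was not measured for the channel genes alone.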
